A study of Mus musculus with 90 samples.

Results

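The mouse Fc gamma receptors and the proteins that work with them were described across 90 melanoma allografts. The 6 genes were Fcgr1, Fcgr3 and Fcgr4, which encode the activating receptors, Fcgr2b, the inhibitory receptor, Fcer1g, the signalling chain of the activating receptors, and Fcgrt, the neonatal Fc receptor. They are 6 of the 18194 genes that had at least 1 probe set carrying a single gene symbol, and all 6 were measured. Each gene was represented by its probe set with the highest mean over all 90 arrays.

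Fc gamma receptors bind the constant part of IgG and are carried mainly by macrophages, monocytes, neutrophils, dendritic cells and NK cells. FcγRI (Fcgr1), FcγRIII (Fcgr3) and FcγRIV (Fcgr4) signal through the ITAM of the common gamma chain, which Fcer1g encodes, and drive phagocytosis, cell killing and cytokine release. FcγRIIB (Fcgr2b) carries an ITIM that recruits the phosphatase SHIP1 and restrains those signals, and it is the only Fc gamma receptor of B cells. FcRn (Fcgrt) pairs with beta-2 microglobulin and recycles IgG inside endothelial and myeloid cells. The balance between activating and inhibitory receptors sets how strongly a myeloid cell answers an antibody-coated target.

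The tumours were subcutaneous melanomas labelled Hgftg;Cdk4R24C/R24C on strain B6.cBrd, so every group carried both the transgene and the Cdk4 allele, and animal age was not given in the sources used here. Mice received anti-mouse PD-L1 of isotype IgG1 with the D265A change, a control IgG1 that per the design text carried D265A too, or PBS, by repeated intraperitoneal injection. The labels give 10 mg/kg for the antibodies and 10 ml/kg for PBS. D265A is a change in the Fc part that is known to reduce binding to Fc gamma receptors, so both antibodies had an Fc of that kind. Study 2 held 3 PBS, 14 IgG, 17 responder, 14 non-responder, 3 relapse and 2 growth delay tumours. Study 3 held 4 PBS, 8 IgG, 10 responder, 9 non-responder, 3 relapse and 3 stabilization tumours. Responders had lost at least 5% of their volume, non-responders had progressed, relapse tumours had shrunk below measurement and regrown, growth delay tumours appeared only after dosing had begun, and stabilization tumours were those, within the responding animals, whose volume did not change between 2 measurements. Outcome was read from the tumours after treatment, so responders and non-responders are not randomised arms. In both studies the PBS, IgG and anti-PD-L1 animals came from separate blocks of animal numbers, so animal block and control treatment cannot be told apart.

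All values are log2 array values. Array medians lay between 5.71 and 5.90, and the number of arrays limits the precision of each comparison. The mean of 10 melanocyte genes had a median of 10.01 over all tumours and was low in 5 tumours, at 8.28 in study 2 non-responder tumour 14, 6.70 and 6.65 in study 3 responder tumours 3 and 4, and 6.90 and 8.84 in stabilization tumours 1 and 2. Those 5 tumours also had macrophage list means between 10.54 and 11.48, against a median of 8.96. Study 2 non-responder tumour 14 and study 3 responder tumour 3 further had B cell list means of 9.95 and 10.44, against a median of 5.27. These 5 are called the melanocyte-poor tumours, and the counts of genes between responders, stabilization tumours and their controls are given with and without them.

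4 of the 6 genes, Fcgr2b, Fcgr4, Fcgr3 and Fcer1g, lie within 274 kb of chromosome 1 in GRCm38.p6, whereas Fcgr1 lies on chromosome 3 and Fcgrt on chromosome 7. Fcgr2b spans chr1:170960558-170976071, Fcgr4 spans chr1:171018926-171029761, Fcgr3 spans chr1:171051169-171065915 and Fcer1g spans chr1:171229572-171234349. Fcgr1 spans chr3:96282909-96293969 and Fcgrt spans chr7:45092993-45103822. The 250 bases before the start site were read from RefSeq's GRCm38.p6 promoters for all 6 genes, and 2 motifs were searched on both strands. These were AANNGAAA, the core bound by interferon regulatory factors, and GAGGAA, a core of the kind bound by the myeloid factor PU.1. Windows of Fcgr1, Fcgr4 and Fcgr2b are printed because 2 activating receptors and the inhibitory one differ in which motifs they hold. Capitals mark every match on either strand, and the sequences run 5′ to 3′ on the strand of the gene.
Fcgr1, chr3:96293970-96294219, minus strand: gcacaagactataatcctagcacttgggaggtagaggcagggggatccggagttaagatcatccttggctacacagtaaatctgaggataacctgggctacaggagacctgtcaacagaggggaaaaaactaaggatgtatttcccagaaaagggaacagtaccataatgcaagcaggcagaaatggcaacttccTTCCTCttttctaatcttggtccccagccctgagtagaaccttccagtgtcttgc
Fcgr4, chr1:171018676-171018925, plus strand: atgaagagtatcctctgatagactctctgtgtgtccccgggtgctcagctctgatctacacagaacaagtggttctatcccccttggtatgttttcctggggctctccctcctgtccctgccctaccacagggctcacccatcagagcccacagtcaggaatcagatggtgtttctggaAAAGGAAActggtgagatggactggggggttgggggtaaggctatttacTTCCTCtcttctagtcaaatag
Fcgr2b, chr1:170976072-170976321, minus strand: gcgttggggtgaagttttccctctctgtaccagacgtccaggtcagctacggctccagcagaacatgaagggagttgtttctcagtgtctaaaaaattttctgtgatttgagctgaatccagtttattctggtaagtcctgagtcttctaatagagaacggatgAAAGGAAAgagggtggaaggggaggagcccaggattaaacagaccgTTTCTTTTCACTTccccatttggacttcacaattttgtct

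AANNGAAA stood once in Fcgr4, as AAAGGAAA from 71 to 64 bases before the start, and 3 times in Fcgr2b, where 2 of the matches overlap; 21.3% of all 32851 promoter windows held it. GAGGAA, read on the opposite strand as TTCCTC, stood in Fcgr1, Fcgr3 and Fcgr4 but not in Fcgr2b, Fcer1g or Fcgrt, and 23.3% of all windows held it. Fcgr3 had 2 annotated start sites, with windows that overlap. The Fcer1g and Fcgrt windows held neither motif. These are matches of letters, and binding was not measured.

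Across all 90 tumours, Fcgr4 ran from 7.30 to 11.86, Fcgr3 from 7.60 to 12.55 and Fcgr1 from 7.45 to 11.24. Fcer1g ran from 9.55 to 12.99, Fcgr2b from 8.42 to 11.77 and Fcgrt from 8.51 to 10.75. The SD within groups was largest for Fcgr4, at 0.78, and smallest for Fcgrt, at 0.48. Levels of different probe sets depend on the probes and are not compared with each other here. For each of the 6 genes, stabilization had the highest group mean and study 3 responders the second highest.

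**Figure D1:**
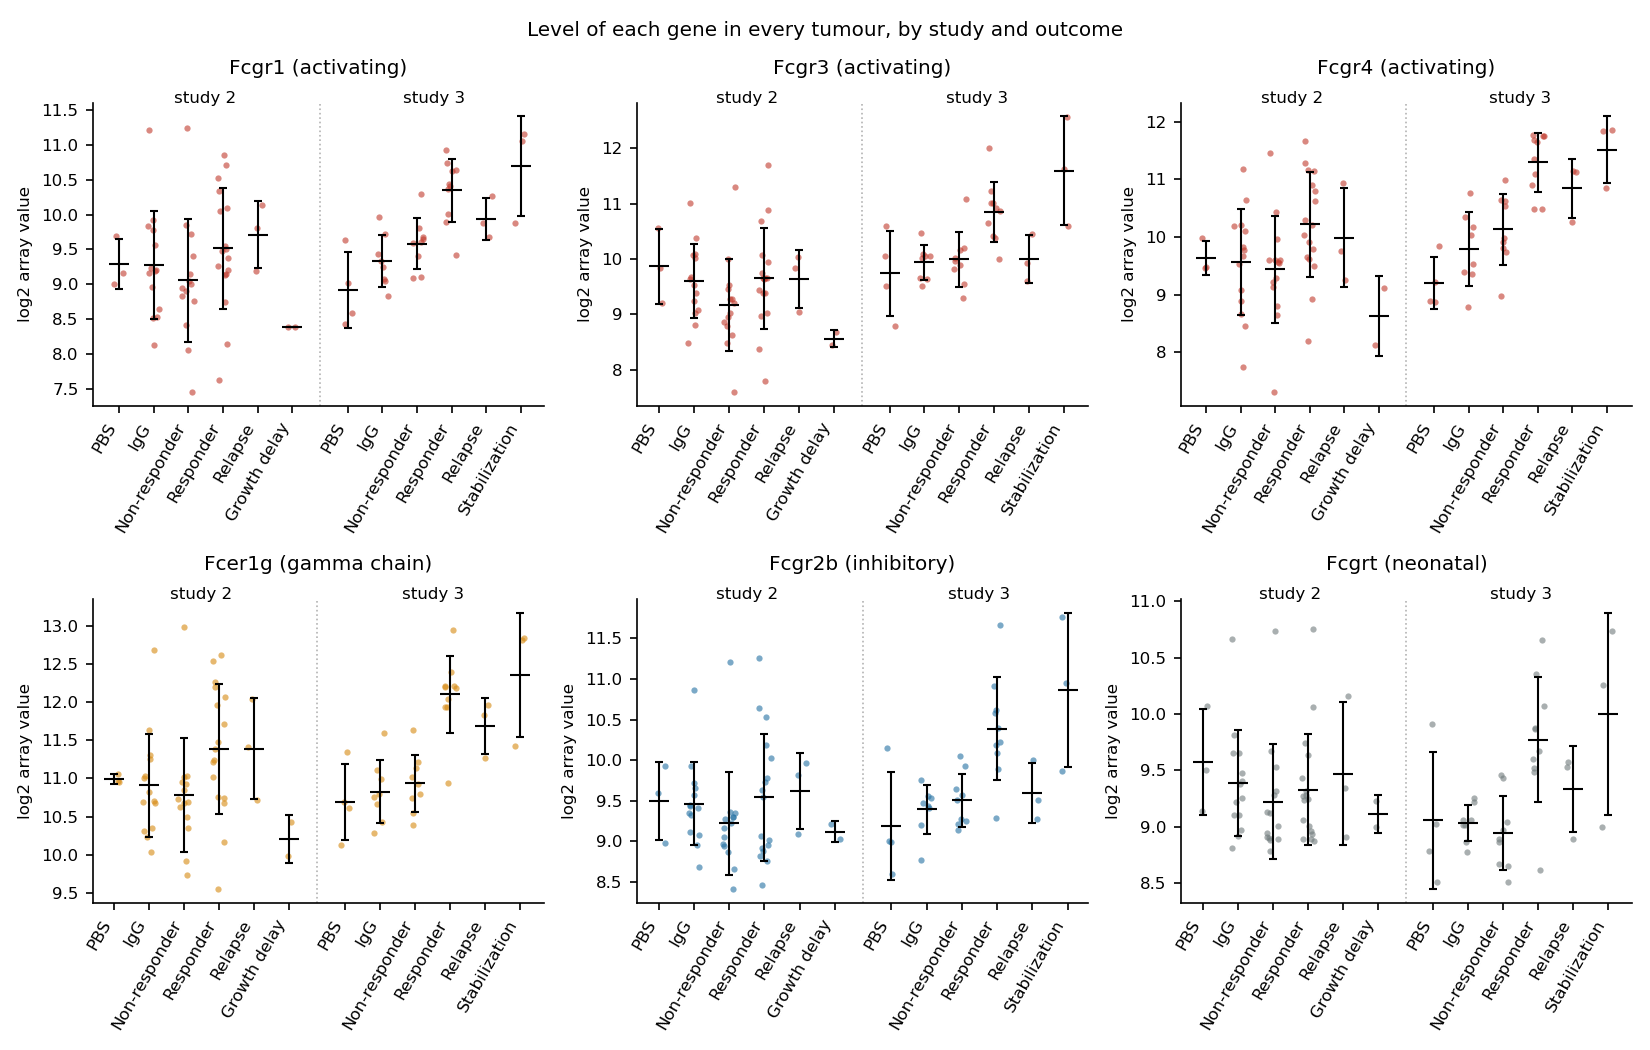
Log2 array value of each gene (y axis) in every tumour of the 12 groups (x axis, study 2 left and study 3 right of the dotted line); points are tumours and black marks are group means with SD. Study 3 responders and stabilization tumours have the highest group means for all 6 genes. In study 2 the responders, non-responders and IgG tumours overlap for each gene.

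The first question was how the receptors differed between tumours that answered PD-L1 blockade and tumours that progressed under the same antibody. Averaged over both studies, all 6 genes were higher in responders than in non-responders, by 1.38 to 1.96 times, with Fcgr4 and Fcer1g moving most. Of all genes tested, 18.9% were higher in this comparison at an adjusted p under 0.05 in limma with Benjamini-Hochberg adjustment. The median difference was 0.64 over the 6 genes and -0.06 over all genes tested.

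Among the activating receptors, Fcgr4, which binds IgG2 subclasses and is found on monocytes, macrophages and neutrophils, was higher by 0.97 ± 0.23 (log2, SE; limma adjusted p = 0.000732). In study 3 it ran from 8.98 to 10.99 with a median of 9.98 in 9 non-responders, and from 10.49 to 11.77 with a median of 11.50 in 10 responders. All 10 responders lay above the non-responder median and 7 lay above every non-responder. In study 2 it ran from 7.30 to 11.46 with a median of 9.56 in 14 non-responders, and from 8.19 to 11.67 with a median of 10.20 in 17 responders. There 14 of 17 responders exceeded the non-responder median and 1 exceeded every non-responder.

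Fcgr3, the low-affinity activating receptor shared by NK cells and myeloid cells, was higher by 0.66 ± 0.20 (limma adjusted p = 0.00634). Its study 3 values ran from 9.29 through a median of 9.96 to 11.07 in non-responders and from 9.99 through 10.89 to 12.00 in responders. The 2 groups overlapped, with 2 of 10 responders above every non-responder. In study 2 the corresponding values were 7.60, 9.11 and 11.29 in non-responders and 7.81, 9.65 and 11.69 in responders.

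Fcgr1, the high-affinity receptor and a textbook interferon gamma target, was higher by 0.61 ± 0.20 (limma adjusted p = 0.00923). Study 3 non-responders ran from 9.09 through a median of 9.61 to 10.29 and responders from 9.43 through 10.42 to 10.92, and 7 of 10 responders lay above every non-responder. Study 2 non-responders ran from 7.45 through 8.98 to 11.24 and responders from 7.63 through 9.48 to 10.85, with no responder above the highest non-responder. That highest non-responder was tumour 14, one of the 5 melanocyte-poor tumours.

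Fcer1g, the gamma chain that the 3 activating receptors need for signalling and surface display, was higher by 0.89 ± 0.19 (limma adjusted p = 0.000275). In study 3 it ran from 10.39 through a median of 10.93 to 11.64 in non-responders and from 10.94 through 12.20 to 12.95 in responders. There 9 of 10 responders exceeded every non-responder, and responder tumour 6 was the exception. Study 2 values were 9.73, 10.71 and 12.99 in non-responders and 9.55, 11.38 and 12.62 in responders, as lowest, median and highest.

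The inhibitory receptor Fcgr2b rose alongside, by 0.60 ± 0.17 (limma adjusted p = 0.00416). Study 3 non-responders ran from 9.14 through a median of 9.51 to 10.06 and responders from 9.29 through 10.31 to 11.67, and 8 of 10 responders lay above every non-responder. In study 2 the values were 8.42, 9.19 and 11.20 in non-responders and 8.47, 9.55 and 11.26 in responders. Only 9 of 17 study 2 responders exceeded the non-responder median.

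Fcgrt, which returns IgG to the circulation, moved least, by 0.47 ± 0.14 (limma adjusted p = 0.00527). In study 3 it ran from 8.52 through a median of 8.90 to 9.46 in non-responders and from 8.62 through 9.77 to 10.66 in responders, with 9 of 10 responders above every non-responder. In study 2 it ran from 8.78 through 9.06 to 10.74 in non-responders and from 8.88 through 9.25 to 10.75 in responders, and the difference was 0.11 ± 0.17.

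Within each study, 6 of 6 genes passed in study 3, where 14.4% of all genes were higher, and 0 of 6 passed in study 2, where 2.63% of all genes passed in either direction. In study 3 the differences ran from 0.76 for Fcgr1 to 1.17 for Fcer1g. In study 2 all 6 differences were positive, 2 of 6 had an unadjusted p under 0.05, and the nearest to the threshold was Fcgr4, at 0.78 ± 0.28 (limma adjusted p = 0.0847). The difference between the studies was itself tested, and 0 of 6 genes passed the interaction test, as did 0% of all genes; 1 of 6, Fcgrt, had an unadjusted p under 0.05. When the 5 melanocyte-poor tumours were set aside, 4 of 6 genes were higher in study 2, beside 9.93% of all genes, 3 of 6 in study 3, beside 6.25%, and 6 of 6 averaged over both studies, beside 17.2%. Without study 2 non-responder tumour 14 alone, 2 of 6 were higher in study 2, beside 6.40% of all genes.

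**Figure D2:**
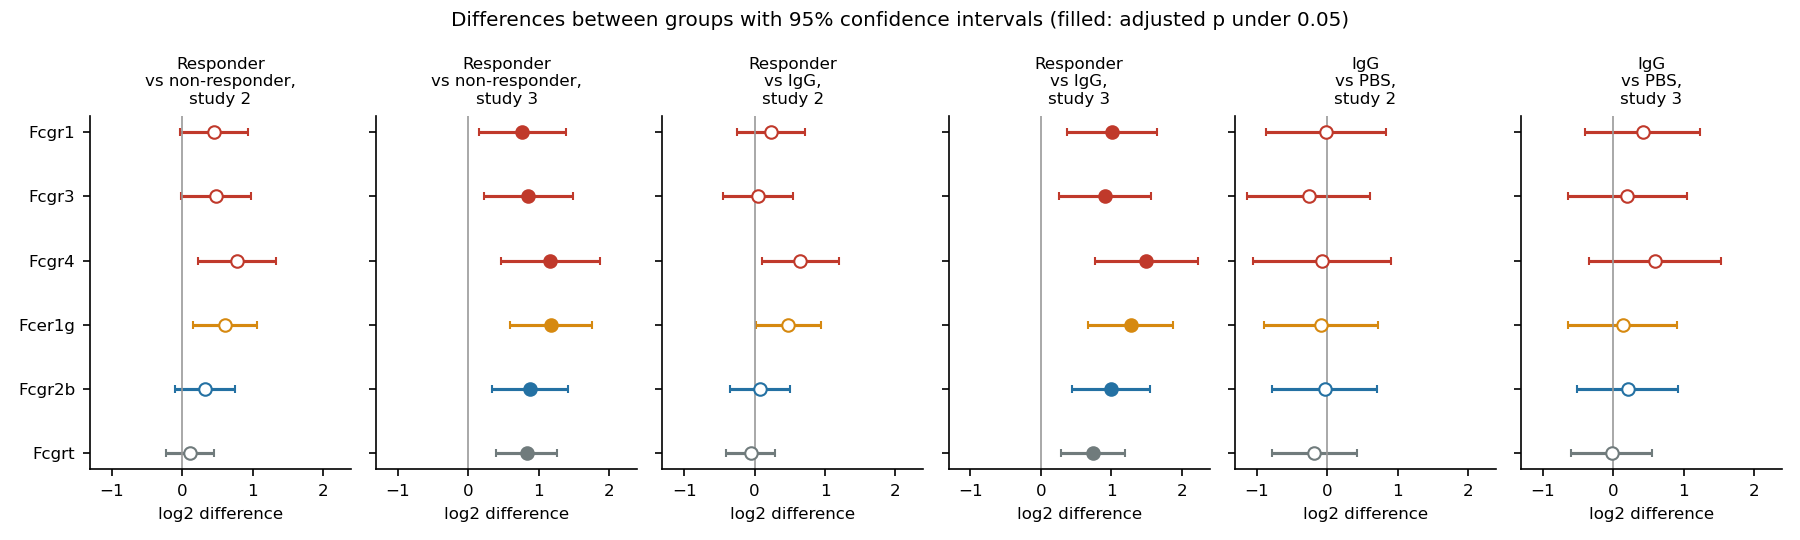
Difference between groups in log2 units (x axis) for each gene (y axis), with 95% confidence intervals, for 3 comparisons in each study; filled points passed an adjusted p under 0.05 in limma. The study 3 responder comparisons are filled for all 6 genes, and no interval of IgG against PBS lies clear of 0.

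Against IgG-treated tumours, responders were higher for 4 of 6 genes averaged over both studies, beside 15.3% of all genes. Fcgr4 was higher by 1.08 ± 0.23 (limma adjusted p = 0.000508), Fcer1g by 0.88 ± 0.19 (0.000584), Fcgr1 by 0.62 ± 0.20 (0.0138) and Fcgr2b by 0.53 ± 0.18 (0.0158). Fcgr3, at 0.48 ± 0.21 (limma adjusted p = 0.0614), and Fcgrt, at 0.34 ± 0.14 (0.0523), did not pass. With PBS and IgG tumours pooled within study as the control, 6 of 6 were higher, beside 19.2% of all genes, and without the 5 melanocyte-poor tumours 4 of 6 were, beside 10.4%. Responders and IgG tumours enter these values and those against non-responders with the responders in common, so the 2 sets of values are not independent.

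In study 3, 6 of 6 genes were higher in responders than in IgG tumours, beside 9.20% of all genes, with Fcgr4 at 1.5 ± 0.37, Fcer1g at 1.28 ± 0.30, Fcgr1 at 1.01 ± 0.32, Fcgr2b at 0.99 ± 0.28, Fcgr3 at 0.91 ± 0.33 and Fcgrt at 0.74 ± 0.23. The 8 IgG tumours of study 3 ran for Fcgr4 from 8.79 through a median of 9.78 to 10.76, and 8 of 10 responders lay above all of them. For Fcer1g the IgG tumours ran from 10.28 through 10.78 to 11.59, and 9 of 10 responders lay above all of them. Without those 5 melanocyte-poor tumours, 3 of 6 genes were higher in study 3, beside 4.35% of all genes.

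In study 2, 0 of 6 genes passed against IgG, although 27.3% of all genes did in either direction, and 2 of 6, Fcgr4 and Fcer1g, had an unadjusted p under 0.05. Fcgr4 was at 0.65 ± 0.28 (limma adjusted p = 0.0671), Fcer1g at 0.48 ± 0.23, Fcgr1 at 0.24 ± 0.24, Fcgr2b at 0.075 ± 0.21, Fcgr3 at 0.047 ± 0.25 and Fcgrt at -0.059 ± 0.17. The 14 IgG tumours of study 2 ran for Fcgr4 from 7.74 through 9.72 to 11.18 and for Fcgr2b from 8.69 through 9.42 to 10.86. 12 of 17 responders exceeded the IgG median for Fcgr4, and 9 of 17 did for Fcgr2b. The change in study 3 minus that in study 2 passed for 0 of 6 genes, beside 1.70% of all genes; 4 of 6 had an unadjusted p under 0.05, and the lowest adjusted p was 0.0906, for Fcgrt.

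Non-responders and IgG tumours were compared to see what PD-L1 blockade without regression left. The count was 0 of 6 averaged over both studies, with 0 of 6 at an unadjusted p under 0.05, beside 0.00550% of all genes, that is 1 gene, by limma. The differences were 0.013 ± 0.21 for Fcgr1, -0.19 ± 0.21 for Fcgr3, 0.10 ± 0.24 for Fcgr4, -0.065 ± 0.18 for Fcgr2b, -0.0087 ± 0.20 for Fcer1g and -0.13 ± 0.15 for Fcgrt. The 95% confidence interval of Fcgr4 ran from -0.37 to 0.58. The signs of most values differed between the 2 studies, but that difference did not pass a test. The change in study 3 minus that in study 2 passed for 0 of 6 genes, beside 0.203% of all genes. None of the 6 had an unadjusted p under 0.05 there. In study 2 alone 0 of 6 genes passed, beside 0% of all genes. All 6 of its values lay below 0, with a median of -0.19. In study 3 alone 0 of 6 passed, beside 0.693% of all genes. There 5 of 6 values lay above 0, with a median of 0.11.

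The control antibody was compared with PBS within each study, since IgG is itself a ligand of these receptors. Per the design text this control IgG1 carried D265A, a change known to reduce that binding. In study 2, 0 of 6 genes passed, with 0 of 6 at an unadjusted p under 0.05, beside 0.00550% of all genes by limma. The 3 PBS tumours had Fcgr1 at 9.01, 9.70 and 9.17, Fcgr3 at 9.20, 10.56 and 9.83, and Fcgr4 at 9.47, 9.98 and 9.46. They had Fcgr2b at 8.98, 9.92 and 9.60, Fcer1g at 10.97, 11.06 and 10.95, and Fcgrt at 9.14, 10.07 and 9.51. Tumour 2 was the highest of the 3 for every gene. The 14 IgG tumours surrounded these values on both sides, with Fcgr1 from 8.13 through a median of 9.20 to 11.21, Fcgr3 from 8.49 through 9.58 to 11.02 and Fcer1g from 10.03 through 10.76 to 12.68. The differences were all slightly below 0, from -0.26 ± 0.44 for Fcgr3 to -0.012 ± 0.43 for Fcgr1. Without PBS tumour 2 the values of Fcgr1, Fcgr3, Fcgr4, Fcgr2b and Fcgrt turned positive, up to 0.19 for Fcgr1.

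In study 3, 0 of 6 genes passed between IgG and PBS, with 0 of 6 at an unadjusted p under 0.05, beside 0.484% of all genes by limma. The 4 PBS tumours had Fcgr1 at 9.64, 8.58, 8.43 and 9.02, and Fcgr4 at 9.22, 8.88, 8.87 and 9.84. They had Fcgr3 at 10.60, 8.79, 9.51 and 10.05, and Fcgr2b at 10.15, 9.0, 8.60 and 9.01. Their Fcer1g values were 11.35, 10.62, 10.13 and 10.69, and their Fcgrt values 9.91, 9.03, 8.51 and 8.78. PBS tumour 1 was the highest of the 4 for every gene but Fcgr4. All 8 IgG tumours lay above the PBS median for Fcgr1, and 7 of 8 did for Fcgr4 and for the inhibitory Fcgr2b. For Fcer1g and for Fcgrt 6 of 8 did, and for Fcgr3 5 of 8. Fcgr4 was at 0.59 ± 0.47 (95% interval -0.34 to 1.53), Fcgr1 at 0.41 ± 0.41, Fcgr2b at 0.21 ± 0.36, Fcgr3 at 0.20 ± 0.43, Fcer1g at 0.13 ± 0.39 and Fcgrt at -0.024 ± 0.29. The interferon gamma list mean ran from 8.54 to 9.30 in the PBS tumours and from 8.94 to 10.31 in the IgG tumours of study 3. With that mean as a covariate 5 of the 6 values turned from positive to negative, with none past the test. They were -0.33 for Fcgr1, -0.25 for Fcgr3, -0.38 for Fcgr4, -0.22 for Fcgr2b and -0.55 for Fcer1g. With the macrophage list mean as a covariate, Fcgr3 turned to -0.14, Fcgr2b to -0.11 and Fcer1g to -0.20, and the other genes kept their sign. Both lists come from the same arrays as the 6 genes, and the cause of these differences was not tested.

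The balance of the receptors was taken per tumour as the mean of Fcgr1, Fcgr3 and Fcgr4 minus Fcgr2b. The zero of this quantity depends on the probes, so only differences between groups are read, and since it is a score over chosen genes no p is given. Responders exceeded non-responders by 0.15 ± 0.14 (SE) over both studies, by 0.25 ± 0.17 in study 2 and by 0.048 ± 0.23 in study 3. Responders exceeded IgG tumours by 0.19 ± 0.15, and non-responders exceeded IgG tumours by 0.042 ± 0.14. IgG minus PBS was -0.081 ± 0.16 in study 2 and 0.20 ± 0.28 in study 3.

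Receptor by receptor, the responder minus non-responder difference exceeded that of Fcgr2b by 0.37 ± 0.17 for Fcgr4, by 0.066 ± 0.14 for Fcgr3 and by 0.012 ± 0.16 for Fcgr1. For the gamma chain Fcer1g the excess was 0.29 ± 0.087 with the Fcgr2b probe set used throughout. Against IgG, the excess over Fcgr2b was 0.54 ± 0.20 for Fcgr4, 0.090 ± 0.15 for Fcgr1 and -0.056 ± 0.13 for Fcgr3.

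These excesses are for 1 Fcgr2b probe set, and their size depended on that choice. The array carries 5 for this gene, called here by their order of mean level over the 90 tumours. The first, used throughout, spanned 8.42 to 11.77 and gave a responder minus non-responder difference of 0.60. The second spanned 6.89 to 12.40 and gave 0.96, which is the size of the Fcgr4 difference, 0.97. The third gave 0.83 and the fourth gave 0.80, and the second, the third and the fourth correlated with the first at r = 0.96, 0.97 and 0.96 over 90 tumours. The fifth spanned only 2.47 to 3.04, near the lowest array value of 2.19, and gave -0.068 with r = -0.04. With the second probe set, Fcgr4 exceeded Fcgr2b by 0.0069 ± 0.18 and the activating mean minus Fcgr2b was -0.22 ± 0.16 in responders against non-responders. With the mean of the 4 brighter probe sets, an alternative chosen after the values were seen, it was -0.051 ± 0.14, and Fcgr4 exceeded Fcgr2b by 0.17 ± 0.17. The Fcer1g excess was -0.078 ± 0.11 with the second, 0.056 ± 0.088 with the third, 0.082 ± 0.082 with the fourth and 0.087 ± 0.080 with that mean, also chosen after the values were seen, so it was within its SE or close to it with each of these. In responders against IgG, the Fcgr4 excess was 0.38 ± 0.22 with the second and 0.46 ± 0.21 with the third. It was 0.54 ± 0.21 with the fourth and 0.48 ± 0.20 with that mean. With the second, the excess against IgG was -0.068 ± 0.18 for Fcgr1 and -0.21 ± 0.15 for Fcgr3. For IgG minus PBS in study 3, the activating mean minus Fcgr2b was -0.19 ± 0.41 with the second and -0.22 ± 0.46 with the fourth, below 0 where the first gave 0.20. Fcgr1 had 2 probe sets, with differences of 0.61 each, and the other 4 genes had 1 each.

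**Figure D3:**
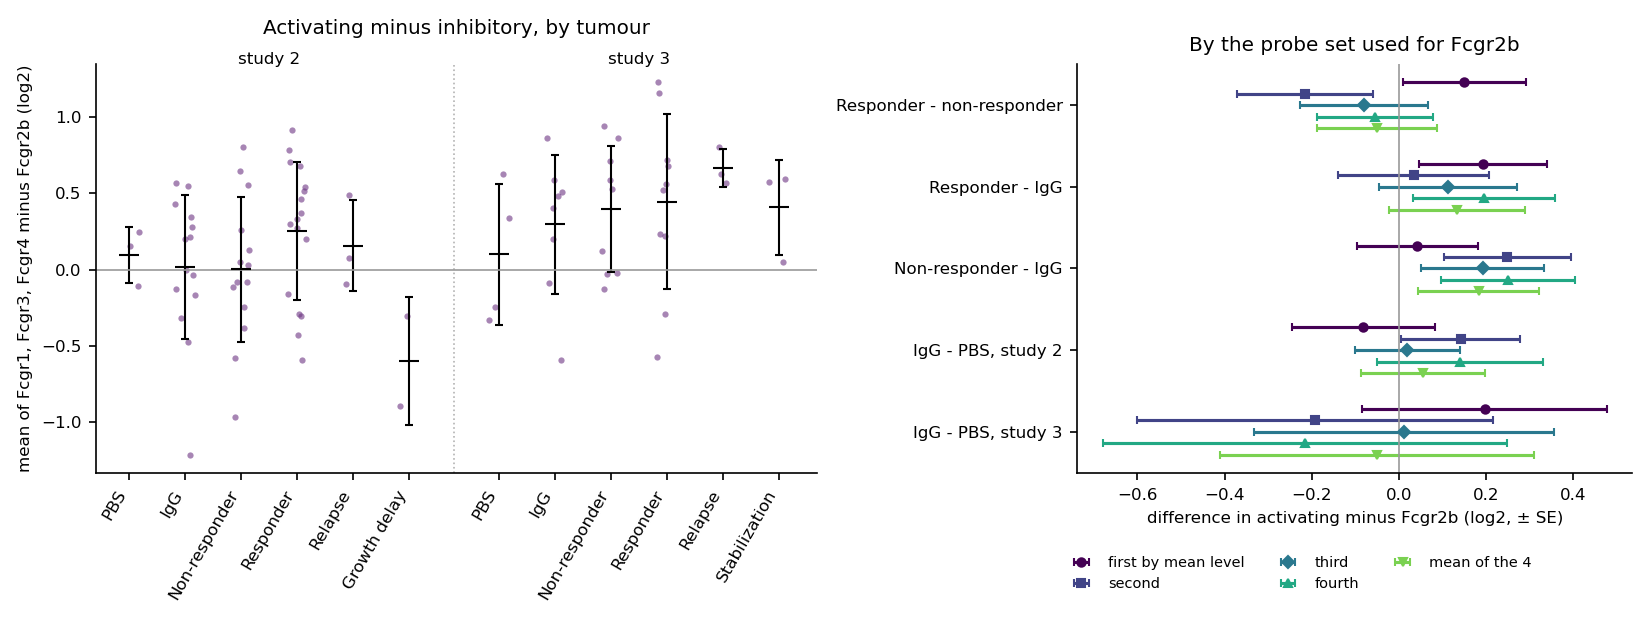
Left, the mean of Fcgr1, Fcgr3 and Fcgr4 minus Fcgr2b (y axis, log2) in every tumour by group, with group mean and SD; right, differences between groups in that quantity (x axis, log2, with SE) for the 4 brighter Fcgr2b probe sets and for their mean. The responder minus non-responder value is 0.15 with the first probe set and -0.22 with the second.

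Averaged over both studies, the values of relapse tumours lay below those of responders and above those of non-responders for all 6 genes, without passing the test in either direction. In study 2 alone, 4 of 6 values lay above those of responders, from 0.0034 ± 0.40 for Fcer1g to 0.20 ± 0.42 for Fcgr1. By limma 0 of 6 genes passed against responders, beside 0% of all genes and with 0 of 6 at an unadjusted p under 0.05. Against non-responders 0 of 6 passed, beside 24.0% of all genes, with 1 of 6, Fcer1g, at an unadjusted p under 0.05. Against IgG 0 of 6 passed, beside 1.09% of all genes, with 2 of 6, Fcgr4 and Fcer1g, at an unadjusted p under 0.05. The 3 study 3 relapse tumours had Fcgr4 at 11.15, 10.26 and 11.13, Fcer1g at 11.96, 11.27 and 11.83, and Fcgr2b at 10.00, 9.28 and 9.51. The 3 study 2 relapse tumours had Fcgr4 at 10.93, 9.25 and 9.76, Fcer1g at 12.04, 10.72 and 11.42, and Fcgr2b at 9.82, 9.09 and 9.96. Against non-responders the differences were 0.68 ± 0.29 for Fcer1g (limma adjusted p = 0.071), 0.63 ± 0.36 for Fcgr4, 0.51 ± 0.31 for Fcgr1, 0.32 ± 0.22 for Fcgrt, 0.24 ± 0.27 for Fcgr2b and 0.23 ± 0.32 for Fcgr3. Against IgG they were 0.73 ± 0.36 for Fcgr4, 0.67 ± 0.30 for Fcer1g, 0.52 ± 0.31 for Fcgr1, 0.19 ± 0.22 for Fcgrt, 0.18 ± 0.27 for Fcgr2b and 0.047 ± 0.32 for Fcgr3.

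The 3 stabilization tumours of study 3 had the highest levels but rest on 2 melanocyte-poor tumours. Fcgr4 was 11.84, 11.86 and 10.85, Fcgr3 12.55, 11.62 and 10.60, and Fcgr1 11.05, 11.16 and 9.88 in tumours 1, 2 and 3. Fcer1g was 12.82, 12.84 and 11.42, Fcgr2b 11.77, 10.95 and 9.87, and Fcgrt 10.74, 10.26 and 9.0. Tumour 3 was the lowest for every gene. Against non-responders 6 of 6 genes were higher, beside 13.3% of all genes, from 1.05 ± 0.32 for Fcgrt to 1.60 ± 0.46 for Fcgr3. Against IgG 6 of 6 were higher, beside 10.7% of all genes, from 0.97 ± 0.32 for Fcgrt to 1.72 ± 0.52 for Fcgr4. Against responders 0 of 6 passed in limma, with 0 of 6 at an unadjusted p under 0.05, beside 0.110% of all genes. Without those 5 melanocyte-poor tumours, which leaves 1 stabilization tumour that is assumed to vary like the other groups, 0 of 6 genes passed in either comparison, beside 0.00550% of all genes in each. Without tumour 1, 0 of 6 passed in either, again beside 0.00550% of all genes. Without tumour 2, 1 of 6 was higher against non-responders, beside 5.63% of all genes, and 2 of 6 against IgG, beside 4.38%.

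The 2 growth delay tumours of study 2 had the lowest group mean for every gene but Fcgrt. Fcgr1 was 8.39 in both, Fcgr3 8.67 and 8.45, Fcgr4 9.11 and 8.13, Fcgr2b 9.03 and 9.22, Fcer1g 9.98 and 10.43, and Fcgrt 9.0 and 9.23. Against IgG the differences were -1.04 ± 0.52 for Fcgr3, -0.95 ± 0.58 for Fcgr4, -0.89 ± 0.51 for Fcgr1, -0.70 ± 0.48 for Fcer1g, -0.35 ± 0.45 for Fcgr2b and -0.27 ± 0.36 for Fcgrt. By limma 0 of 6 passed, with 0 of 6 at an unadjusted p under 0.05, beside 0% of all genes. The activating mean minus Fcgr2b was -0.61 ± 0.32 against IgG with the first Fcgr2b probe set and -0.073 ± 0.42 with the second.

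Counts of the genes that act just below the receptors were taken between responders and non-responders averaged over both studies, where 18.9% of all genes were higher and 32.3% lower. Of 9 measured genes of proximal ITAM signalling, 8 were higher, with a median difference of 0.74, among them Syk, the kinase that docks on the phosphorylated ITAM, at 1.24 ± 0.26 (limma adjusted p = 0.000267), the adaptor Lcp2 at 1.10 ± 0.20 (7.58e-05) and the Src-family kinase Fgr at 0.95 ± 0.20 (0.000249). Pik3cd did not pass, at -0.050 ± 0.11. Of 7 genes of ITIM signalling, 6 were higher, with a median of 0.25. Inpp5d, which encodes SHIP1, was at 1.14 ± 0.24 (limma adjusted p = 0.000286) and Ptpn6, which encodes SHP-1, at 0.77 ± 0.18 (0.000710). Dok2 was at 0.58 ± 0.17, Inppl1 at 0.25 ± 0.067, Dok1 at 0.21 ± 0.062 and Ptpn11 at 0.17 ± 0.072, while Csk, at 0.14 ± 0.073, did not pass.

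Of 5 measured subunits of the phagocyte oxidase, which makes superoxide after receptor engagement, 4 were higher, with Cybb at 1.41 ± 0.27, Ncf1 at 1.37 ± 0.28 and Rac2 at 1.35 ± 0.26, whereas Cyba was at -0.031 ± 0.079. Of 9 other myeloid receptors that use ITAM or ITIM signals, 7 were higher, among them Pirb at 1.11 ± 0.25, Clec7a at 1.09 ± 0.25 and Sirpa at 0.81 ± 0.18. The ligand of Fc gamma receptors is IgG, whereas Ighm, Igha and Jchain encode parts of IgM and IgA. Of 5 measured immunoglobulin genes 4 were higher, with Jchain at 2.00 ± 0.46, Ighm at 1.91 ± 0.39, Igha at 1.16 ± 0.36 and Igk at 0.93 ± 0.22. Ighg3, the IgG heavy chain gene of the list that had a single-symbol probe set, was at 0.26 ± 0.28 and did not pass. In IgG against PBS, 0 genes of the proximal, ITIM, oxidase and immunoglobulin lists passed in study 3, beside 0.484% of all genes. In that order, the list means averaged 7.71, 8.44, 8.75 and 7.71 in its IgG tumours. In its PBS tumours they averaged 7.51, 8.17, 8.33 and 6.52.

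The other Fc receptors and partners moved less. Of 10 measured, 3 were higher, with a median of 0.12: Trim21, the cytosolic antibody receptor, at 0.29 ± 0.097, Fcer1a, the IgE receptor chain, at 0.28 ± 0.081, and B2m, the partner of FcRn, at 0.12 ± 0.032. Ms4a2 was at -0.12 ± 0.059, Fcer2a at -0.080 ± 0.17, Fcamr at -0.042 ± 0.046, Pigr at 0.056 ± 0.050, Fcrla at 0.11 ± 0.17, Fcrls at 0.18 ± 0.15 and Fcrl1 at 0.27 ± 0.21, and none of these passed.

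Markers of the cells that carry the receptors, and of other cell types, were counted in the same comparison. In bulk tumours, more cells of a type and more RNA of a gene per cell cannot be told apart. Beside 18.9% of all genes higher and 32.3% lower, 9 of 11 macrophage genes were higher, with Csf1r at 1.40 ± 0.28, C1qc at 0.97 ± 0.19 and Mertk at 0.79 ± 0.16. Of 5 monocyte genes 3 were higher, of 8 neutrophil genes 3, of 5 NK cell genes 3, of 8 B cell genes 3 and of 7 T cell genes 6, with 1 T cell gene, Zap70, lower. The counts were 3 of 7 for plasma cells, 2 of 7 for dendritic cells, 3 of 6 for mast cells, 5 of 7 for endothelium, 4 of 5 for adipocytes and 0 of 8 for skeletal muscle. All 7 fibroblast genes and all 13 interferon gamma genes were higher, and 4 of 10 melanocyte genes were lower and none higher. Without the 5 melanocyte-poor tumours, an alternative for the lists chosen after the values were seen, 17.2% of all genes were higher and 30% lower. Beside those shares, 9 of 11 macrophage, 4 of 8 B cell, 4 of 5 NK cell and 1 of 8 neutrophil genes were higher. In that fit 1 B cell gene was lower, and 3 of 10 melanocyte genes were lower, which is the share of all genes. The macrophage list mean ran from 7.73 through a median of 8.50 to 10.84 in study 2 non-responders, from 7.80 through 9.16 to 10.99 in study 2 responders, from 8.47 through 8.82 to 9.35 in study 3 non-responders and from 8.92 through 9.84 to 11.12 in study 3 responders. The interferon gamma list mean ran over the same groups from 8.84 to 10.81, from 9.44 to 11.09, from 9.32 to 10.12 and from 10.05 to 11.14.

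With the macrophage list mean as a covariate, 0 of 6 genes passed between responders and non-responders averaged over both studies, beside 0.682% of all genes in either direction, and the differences were 0.28 for Fcgr4, 0.11 for Fcer1g, -0.049 for Fcgrt, -0.085 for Fcgr1, -0.11 for Fcgr3 and -0.13 for Fcgr2b. Against IgG, 0 of 6 passed as well, beside 1.32% of all genes, with Fcgr4 at 0.50 and Fcer1g at 0.23. With the interferon gamma list mean as a covariate, 0 of 6 passed in either comparison, beside 0.0989% of all genes against non-responders and 0% against IgG, and Fcgr1 was at -0.11 in both while Fcgrt was at 0.39 against non-responders. The lists and the 6 genes come from the same arrays, so these values describe how closely they move together.

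**Figure D4:**
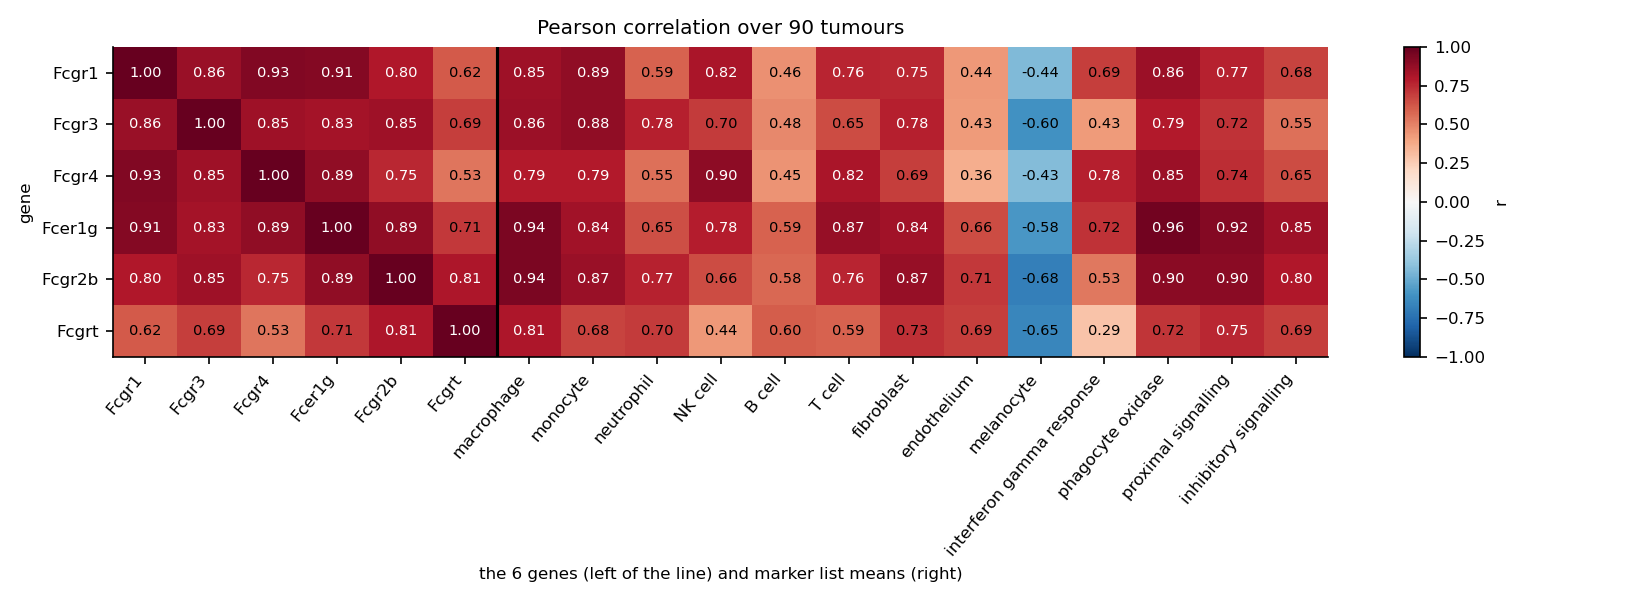
Pearson correlation over 90 tumours between each of the 6 genes (y axis) and the other 5 (left of the line) or the mean of a marker list (right of the line), with r printed in each cell. Among the cell type lists, Fcer1g and Fcgr2b correlate most with macrophages, at 0.94 each, and Fcgr4 with NK cells, at 0.90. Fcgr4 also correlates with the T cell list, at 0.82.

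The 6 genes did not move as a single block. Correlations over 90 tumours, which share outcome groups and cell content, were highest between Fcgr1 and Fcgr4, at r = 0.93, and between Fcgr1 and Fcer1g, at 0.91, and lowest between Fcgr4 and Fcgrt, at 0.53. With group means removed these were 0.90, 0.89 and 0.48. The macrophage list correlated with Fcer1g and Fcgr2b at 0.94, with Fcgr3 at 0.86, with Fcgr1 at 0.85, with Fcgrt at 0.81 and with Fcgr4 at 0.79. The interferon gamma list correlated with Fcgr4 at 0.78, with Fcer1g at 0.72, with Fcgr1 at 0.69, with Fcgr2b at 0.53, with Fcgr3 at 0.43 and with Fcgrt at 0.29. For the B cell list, whose cells carry Fcgr2b but none of the activating receptors, r was 0.58 with Fcgr2b, 0.59 with Fcer1g, 0.60 with Fcgrt and 0.45 to 0.48 with Fcgr1, Fcgr3 and Fcgr4. Without the 5 melanocyte-poor tumours this order changed, to 0.58 with Fcgr2b, 0.69 with Fcer1g, 0.49 with Fcgrt and 0.56 to 0.65 with Fcgr1, Fcgr3 and Fcgr4. The macrophage correlations were then 0.72 to 0.93. The r of Fcgr4 was 0.91 with the NK cell list, 0.85 with the T cell list and 0.44 with Fcgrt. In the pair of tumours with high B cell lists, Fcgr2b was 11.20 and 10.92, and Fcgr4 was 11.46 and 10.49.

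The genes most like each receptor over the 90 tumours were chosen by Pearson correlation, as a description. Fcgr1 was closest to Ms4a6c, at r = 0.95, then Ifi209 and Clec4a3, at 0.93 each. Fcgr3 was closest to Tyrobp, which encodes the ITAM adaptor DAP12, at 0.96, then Cd300c2, at 0.96, and Ctsh, at 0.95. Fcgr4 was closest to AW112010, at 0.96, then Plbd1 and Aif1, at 0.95 each. Fcer1g was closest to the complement gene C1qb, at 0.98, then Sirpb1a, at 0.97, and the inhibitory receptor gene Pirb, at 0.96. Fcgr2b was closest to Cd300lb, at 0.94, then Cd300ld and Gda, at 0.94 each, and the fifth in the order was Dok2, an adaptor of inhibitory signalling, at 0.93. Fcgrt had weaker neighbours, with Slc9a9 at 0.85, Gas1 at 0.84 and Ebf2 at 0.84, and without the 5 melanocyte-poor tumours these were 0.77, 0.76 and 0.78.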

How the data were processed

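The 90 columns hold log2 expression values as deposited, normalized by the authors; RMA and limma are named in the submitters' processing notes, without versions, and the labels do not say if the studies shared one normalization. Normalization of this kind brings arrays to a like scale, which can hide a shift shared by most genes. Probe sets were named from GEO's platform annotation. Of 45101 probe sets, 34958 carried 1 gene symbol, 932 several and 9211 none; only the first kind was used, 1 per gene, giving 18194 genes. Groups came from the labels. limma 3.58.1 in R 4.3.3 fitted 12 group means to all 90 arrays, with 2-sided tests, Benjamini-Hochberg adjustment over all 18194 genes and a threshold of 0.05; averages over studies weight both equally. Each array is a separate animal, and replicate numbers follow accession order. The fit was tested on simulated data. The 6 genes, the marker lists and the 5 tumours left out were chosen with earlier results of these data known. Named genes are the 6, up to 3 per list with the smallest p between responders and non-responders, all genes of the immunoglobulin, other Fc receptor and inhibitory signalling lists, and the nearest genes by correlation; Pik3cd, Cyba and Zap70 were added after their values were seen. Promoter sequences are RefSeq's, build GRCm38.p6; the 50 bases after the start were left out. Alternatives covered the prior variance, array weights, probe sets, filters, normalization, arrays fitted, threshold, covariates, control group and single tumours.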

Additional observations from a re-analysis of the deposited data

Results flagged for a closer look

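In study 3 responders, Fcer1g in tumour 6 was 10.94, against a median of 12.20 in the 10 tumours, and lay far below the rest: its gap to the nearest tumour was 0.497 of the whole range, above Dixon's 95% critical value of 0.466 for 10 samples. Each test took 1 group and either 1 of the 6 genes or the activating mean minus Fcgr2b. Only groups of 4 to 10 tumours were tested, which were the PBS, IgG, non-responder and responder groups of study 3. No group of study 2 was tested, so its non-responder tumour 14 was not covered. Over 28 such tests this was the only tumour set apart, and chance sets apart about 1 in 20 groups. The cause was not tested.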

How the results depend on the processing

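No paired analysis was possible because the labels give every tumour its own animal number and no replicate number shared between groups. Array number and small control groups set the limits: 7 PBS tumours in all, 3 stabilization and 2 growth delay tumours. Of 84 gene values given, 34 passed the threshold; over 602 alternatives of those, 480 stayed past it in the same direction, 99 kept the direction without passing and 23 turned. Over 970 alternatives of the others, 863 stayed on the same side, 28 came to pass and 79 turned. Both tallies count every gene under each swap of a probe set, although a swap changed the data of the swapped gene alone. The values of the remaining genes could hardly move there, so the counts that stayed are raised by construction. Median centring, a trend in the prior variance and leaving out dim genes turned none of these values. The array weights had not converged when their fit stopped. Unless a value or an alternative's own construction shows it, the cause of a change was not tested.

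The number of the 6 genes that passed moved as follows. With array weights it was 4 in responder against non-responder and 2 in responder against IgG in study 2, 5 in relapse against non-responder (2 in study 3), 2 in relapse against IgG (1 in study 3) and 6 in stabilization against responder. Fitting only the groups compared gave 1 in relapse against non-responder in study 3. At a threshold of 0.01 it was 2 in responder against non-responder in study 3, 2 in responder against IgG (2 in study 3) and 3 in stabilization against non-responder and against IgG. For array weights, for only the groups compared and at that threshold, the share of all genes that passed was not taken. Those counts are therefore not read as particular to the 6 genes. Without the 5 tumours low in melanocyte transcripts it was 4 in responder against non-responder in study 2, beside 9.93% of all genes higher. In study 3 it was 3, beside 6.25%. In responder against IgG it was 1 in study 2, beside 15.3%, and 3 in study 3, beside 4.35%. In relapse against non-responder it was 1, beside 17.9%. Without study 2 non-responder tumour 14 it was 2 in responder against non-responder in study 2, beside 6.4% of all genes higher. In relapse against non-responder it was then 1, beside 14%. With the macrophage list as covariate it was 0 in responder against non-responder and against IgG, both averaged and in study 3. It was also 0 in both stabilization comparisons. In responder against IgG in study 2 it was 2, both lower, beside 10.5% of all genes lower. In relapse against non-responder it was 1, lower, beside 3.87% of all genes lower. Study 3 alone gave 1 in that comparison, lower, beside 2.77%. With the interferon gamma list it was 0 in responder against non-responder and against IgG, both averaged and in study 3. For the averaged comparisons, 0.682% and 1.32% of all genes passed with the macrophage list. With the interferon gamma list 0.0989% and 0% did. That share was not taken for the study 3 responder comparisons or the stabilization comparisons with a covariate. These counts of 0 are not read as particular to the 6 genes. Leaving out single tumours gave 0 to 6 in both stabilization comparisons.

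The activating mean minus Fcgr2b became -0.33 in relapse against non-responder in study 2, -0.52 in stabilization against non-responder and -0.073 in growth delay against IgG with the second Fcgr2b probe set by mean level, and -0.51 in stabilization against non-responder with the fourth. With the fifth, near the bottom of the scale, it was 0.82 in responder against non-responder (1.01 in study 3), 0.78 in responder against IgG (1.18 in study 3), -0.54 in relapse against responder in study 3, and 1.38 and 1.55 in stabilization against non-responder and IgG. In relapse against IgG in study 3 it was -0.15 with Fcgr3 alone and 0.85 with Fcgr4 alone.

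Values of single genes turned as follows. With array weights these were Fcgr3 at -0.068 in responder against IgG in study 2, Fcgr1 at -0.052 in non-responder against IgG, and, in IgG against PBS, Fcgr4 at 0.0072 in study 2 and Fcgrt at 0.29 in study 3. In IgG against PBS in study 2, Fcgr1 was 0.069 as the mean of its probe sets and 0.15 by its dimmer probe set. Quantile normalization within study gave Fcgr3 at -0.0039 in responder against IgG in study 2, and Fcgr1 at 0.025 and Fcgr2b at 0.016 in IgG against PBS in study 2. Without the 5 tumours, Fcgr1 was -0.071 in non-responder against IgG and Fcgrt -0.032 in stabilization against IgG, and without study 2 non-responder tumour 14 Fcgr1 was -0.071 in non-responder against IgG. With PBS pooled into the control, Fcer1g was 0.0061 in non-responder against control. Fcgr2b by the fifth of its probe sets was -0.068 in responder against non-responder (-0.051 and -0.084 in studies 2 and 3), -0.052 in responder against IgG (-0.068 and -0.036), 0.016 in non-responder against IgG, 0.037 in IgG against PBS in study 2, -0.078 and -0.062 in relapse against non-responder and IgG, -0.017 in stabilization against non-responder and 0.054 in growth delay against IgG.

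With the macrophage list as covariate, responder against non-responder gave Fcgr1 -0.085, Fcgr3 -0.11, Fcgr2b -0.13 and Fcgrt -0.049, in study 2 Fcgr1 -0.011, Fcgr3 -0.041, Fcgr2b -0.17 and Fcgrt -0.24, and in study 3 Fcgr1 -0.16, Fcgr3 -0.17 and Fcgr2b -0.088. Responder against IgG gave Fcgr3 -0.17, Fcgr2b -0.073 and Fcgrt -0.091, in study 2 Fcgr1 -0.071, Fcgr3 -0.29 and Fcgr2b -0.24, and in study 3 Fcgr3 -0.039. Non-responder against IgG gave Fcgr2b 0.056 and Fcer1g 0.12. IgG against PBS gave Fcgr1 0.19, Fcgr4 0.13, Fcgr2b 0.17 and Fcer1g 0.14 in study 2, and Fcgr3 -0.14, Fcgr2b -0.11 and Fcer1g -0.20 in study 3. Relapse against non-responder gave Fcgr1 -0.082, Fcgr3 -0.42, Fcgr2b -0.37 and Fcgrt -0.12, and against IgG Fcgr3 -0.48, Fcgr2b -0.32 and Fcgrt -0.16. Stabilization against non-responder gave Fcgr1 -0.30, Fcgr4 -0.018, Fcgr2b -0.12 and Fcer1g -0.15, and against IgG Fcgrt -0.034. Growth delay against IgG gave Fcgr2b 0.051 and Fcgrt 0.008.

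With the interferon gamma list as covariate, responder against non-responder gave Fcgr1 -0.11, in study 2 Fcgr1 -0.13 and Fcgr2b -0.019, and in study 3 Fcgr1 -0.080. Responder against IgG gave Fcgr1 -0.11, and in study 2 Fcgr1 -0.37, Fcgr3 -0.32, Fcgr4 -0.14, Fcgr2b -0.27 and Fcer1g -0.073. Non-responder against IgG gave Fcgr1 -0.0032. IgG against PBS in study 3 gave Fcgr1 -0.33, Fcgr3 -0.25, Fcgr4 -0.38, Fcgr2b -0.22 and Fcer1g -0.55. Relapse against non-responder gave Fcgr1 -0.069, Fcgr3 -0.11, Fcgr4 -0.13 and Fcgr2b -0.086, and against IgG Fcgr1 -0.072, Fcgr3 -0.31, Fcgr4 -0.043 and Fcgr2b -0.16. Over single tumours left out, IgG against PBS in study 2 ran from -0.15 to 0.19 for Fcgr1, -0.60 to 0.085 for Fcgr3, -0.16 to 0.10 for Fcgr4, -0.29 to 0.18 for Fcgr2b and -0.40 to 0.067 for Fcgrt. In study 3 it ran from -0.12 to 0.48 for Fcgr3, -0.055 to 0.35 for Fcer1g and -0.21 to 0.26 for Fcgrt. Relapse against IgG ran from -0.069 to 0.20 for Fcgr3.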
